A study of Mus musculus with 46 samples.

Results

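Mouse AML12 cells that carried a doxycycline-inducible hairpin against the long noncoding RNA Falcor were compared with AML12 cells that carried an inducible control hairpin, both after addition of doxycycline, the drug that switches on the hairpin. All genes of the table of the inducible lines were considered, and those with a mean value of at least 3 over the 6 libraries of this comparison were tested, which were 9603 of 55774 genes. A further 41852 genes were at 0 in all 6 libraries, and 4319 had a value but lay below the minimum. The gene nearest below it averaged 2.83 and the lowest gene inside it averaged 3. The series holds 46 RNA-sequencing libraries, of which 18 come from the inducible lines. The 6 groups of those lines, with 3 libraries each, are Falcor hairpin with doxycycline, control hairpin with doxycycline, Falcor hairpin untreated, control hairpin untreated, Falcor hairpin restored and control hairpin restored, where restored is the labels' word for cells that are also marked as without doxycycline. A further 6 AML12 libraries carry a conventional hairpin, 3 against Falcor and 3 control. The columns name the Falcor hairpin shLinc, and it was taken as the Falcor hairpin from the label field that carries the treatment.

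AML12 is a hepatocyte line established from a mouse transgenic for human TGF alpha, so every group shares that transgene, and the 2 groups compared here also share doxycycline. The labels give neither the dose nor the duration of doxycycline, nor whether a line is 1 clone or a pool, nor whether the 3 libraries of a group come from separate cultures, so the p-values below rest on the spread of the libraries alone, and that spread may be technical. Of 14 hepatocyte markers, 9 reached the minimum, among them Alb, Ttr, Hnf4a, Krt8 and Krt18. Apoa1, Apoe, Serpina1b, Cps1 and Ahsg did not reach it. Summed over the list, hepatocyte markers stood at 5765 to 5880 in the Falcor hairpin libraries and 6023 to 6157 in the control hairpin libraries. By the test described below, 5 of the 9 were lower with the Falcor hairpin and 0 higher, with a median log2 difference of -0.37. Over all tested genes 29.9% were lower and 22.8% higher. Between the untreated lines 5 of the 9 were lower in Falcor hairpin cells and 3 higher, against 34.3% and 31.6% over all tested genes. None of the markers of liver macrophages, endothelial cells or stellate cells reached the minimum, and their sums were 2, 0 and 0 in each of the 6 libraries. Of 9 cholangiocyte markers, 5 were tested, and the list summed to 1050 to 1069 with the Falcor hairpin and 1247 to 1269 with the control hairpin.

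Falcor, annotated as 9030622O22Rik, is transcribed from the gene next to Foxa2, which encodes a pioneer transcription factor of endoderm and liver. Long noncoding RNAs can act on a neighbouring gene or in the nucleus at large, and the series' title ties this one to nuclear speckles, the bodies in which splicing factors and SR proteins gather. A hepatocyte keeps its identity through a network of liver-enriched transcription factors, such as HNF4A and the FOXA proteins, which drive the genes of plasma proteins and of lipid, glucose and amino acid metabolism. Hepatocytes also adjust cholesterol synthesis through SREBP factors and oxidize fatty acids under PPARalpha.

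The values of this table are whole numbers that sum to 859568 to 883564 in each library. They are taken to be a length-scaled abundance that was rounded, not read counts, so the depth behind them is unknown and they are called values here. Differences were tested with limma on log2(value + 1) after rescaling the libraries, in one fit over all 18 libraries, and a difference was called at a Benjamini-Hochberg adjusted p below 0.05 over all 9603 genes. Because of the added 1, the log2 differences understate the change of genes with low values. Scaling factors ran between 0.967 and 0.971 for the Falcor hairpin and between 0.955 and 0.956 for the control hairpin with doxycycline. Replicates were close, and 388 genes, or 4.04%, had 1 and the same value in all libraries within each group.

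The hairpin difference with doxycycline was called for 5070 genes, 52.8% of those tested, with 2194 higher (22.8%) and 2876 lower (29.9%) in the Falcor hairpin cells. Most of these differences were small, with a median absolute size of 0.34 on the log2 scale. At 1.5-fold or more, 195 genes were higher (2.03%) and 591 were lower (6.15%), and at 2-fold or more 33 were higher and 93 lower. The median over all tested genes was -0.02. In 6634 genes, 69.1% of those tested, the 3 libraries of one hairpin did not overlap the 3 of the other. The 22.8% higher and 29.9% lower over all genes are the background against which the count of each gene list below is to be read.

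**Figure D1:**
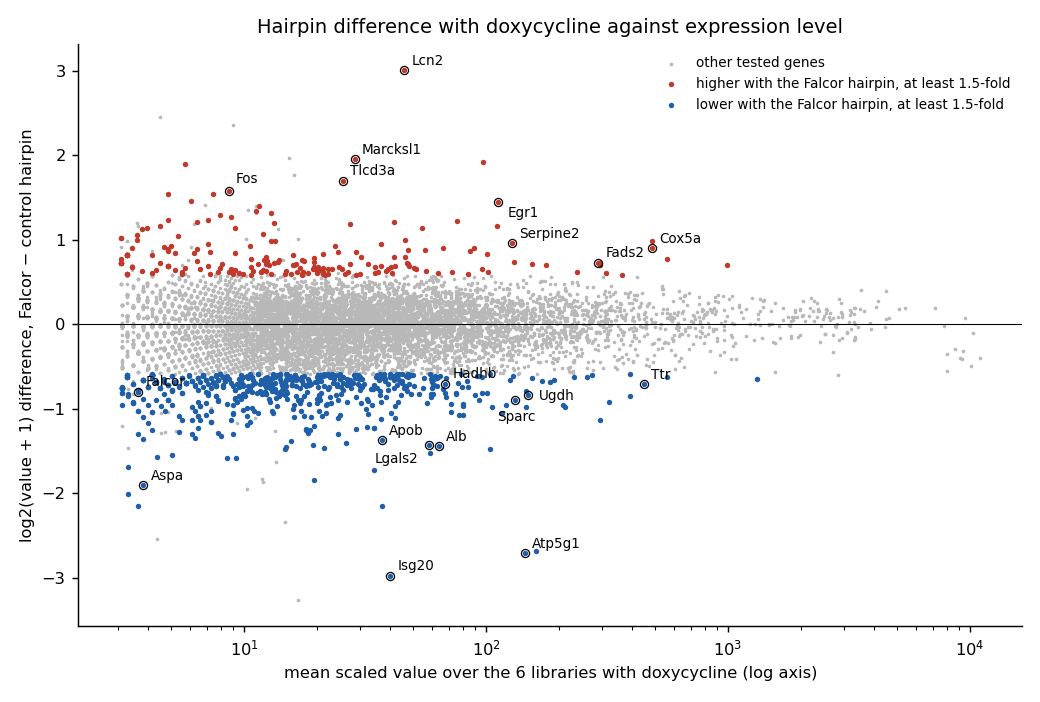
Log2 difference between Falcor hairpin and control hairpin cells with doxycycline (vertical axis, log2(value + 1)) against the mean scaled value over the 6 libraries (horizontal axis, log axis), 1 point per tested gene, with called genes of at least 1.5-fold coloured by direction. The 591 lower genes outnumber the 195 higher ones, and Isg20, Atp5g1 and Lcn2 lie farthest from 0 among the abundant genes that are named.

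Falcor itself had values of 2, 2 and 3 in the Falcor hairpin libraries with doxycycline, against 5, 4 and 5 in the control hairpin libraries. The groups do not overlap, and the log2 difference was -0.80 ± 0.14 (SE, n = 3 each; limma adjusted p = 1.40e-04). These values are close to the minimum, so the rounding to whole numbers is a large part of them. Without doxycycline the order was the other way round, with 12, 9 and 10 in Falcor hairpin cells and 4, 6 and 5 in control hairpin cells, a log2 difference of 0.78. In the restored state Falcor was at 11, 9 and 11 with the Falcor hairpin, against 5, 4 and 5 with the control hairpin, a log2 difference of 0.89. Within the Falcor hairpin line Falcor was thus lowest with doxycycline and back above the control line after restoration. The hairpin difference changed by -1.57 between the untreated state and doxycycline (limma adjusted p = 2.52e-06). Falcor lies on chromosome 2 of GRCm38, at chr2:147944740-148040203 on the minus strand, and Foxa2 at chr2:148042877-148046969 on the same strand.

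Foxa2 was close in both lines with doxycycline, at 59, 59 and 60 with the Falcor hairpin and 54, 50 and 54 with the control hairpin, a log2 difference of 0.15 ± 0.04 (SE, n = 3 each; limma adjusted p = 0.00355). The 3 Falcor hairpin libraries lay above the 3 control libraries by a small margin. The conventional Falcor hairpin gave Foxa2 a log2 difference of -1.48 ± 0.10 (edgeR adjusted p = 1.89e-09), in the opposite direction. Zc3h11a, which encodes a zinc finger protein of mRNA export and is knocked down elsewhere in the series, stood at 21, 20 and 21 in Falcor hairpin cells against 28, 28 and 26 in control hairpin cells, a log2 difference of -0.41 ± 0.07 (SE, n = 3 each; limma adjusted p = 1.71e-04).

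Isg20, an interferon-induced exonuclease that degrades RNA from its 3′ end, showed the largest decrease among the named genes. It had 8, 8 and 8 in the Falcor hairpin libraries with doxycycline, against 73, 70 and 63 in the control hairpin libraries, a ratio of 0.115 and a log2 difference of -2.97 ± 0.06 (SE, n = 3 each; limma adjusted p = 1.99e-15). The untreated lines were apart in the other direction, with 86, 97 and 94 in Falcor hairpin cells and 60, 61 and 62 in control hairpin cells. Between the untreated state and doxycycline Isg20 changed by -3.22 on the log2 scale in the Falcor hairpin line and by 0.18 in the control line. After restoration Isg20 was at 38, 39 and 34 with the Falcor hairpin and at 51, 51 and 50 with the control hairpin. Of 45 listed interferon-induced genes, 13 reached the minimum, and of these 4 were lower (Isg20, Ifit2, Irf3 and Eif2ak2) and 2 higher (Irf9 and Adar), and the list's median was -0.02. Without replicate 3 of either hairpin 2 of the 13 were lower.

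Atp5g1, which encodes the c subunit of the ATP synthase rotor, had 33, 40 and 37 in Falcor hairpin cells, against 244, 248 and 230 in control hairpin cells with doxycycline. All Falcor hairpin libraries were far below all control libraries, and the log2 difference was -2.71 ± 0.08 (SE, n = 3 each; limma adjusted p = 2.42e-13). In the untreated state it was 226, 244 and 236 with the Falcor hairpin against 302, 264 and 271 with the control hairpin, and in the restored state 171, 174 and 180 in Falcor hairpin cells against 264, 266 and 247 in control hairpin cells. Atp5g2, which encodes the same protein subunit, went the other way, at 36, 30 and 31 with the Falcor hairpin against 19, 22 and 23 with the control hairpin. Gm10039, an annotated pseudogene picked here after its values were seen, gave 37, 45 and 42 in Falcor hairpin cells against 268, 258 and 272 in control hairpin cells, close to the Atp5g1 values in every library. How reads were divided between this family is not known, so the Atp5g1 value is uncertain in its assignment to that gene. With the conventional Falcor hairpin Atp5g1 differed by 0.11 ± 0.16 (edgeR adjusted p = 0.576).

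Other large decreases were those of Aspa, Abhd17c, Tspan17 and Mmp28. Aspa, which encodes the enzyme that splits N-acetylaspartate, had 1, 1 and 1 with the Falcor hairpin against 6, 6 and 7 with the control hairpin. Abhd17c, a depalmitoylating enzyme, had 29, 28 and 29 in Falcor hairpin cells and 83, 84 and 83 in control hairpin cells, a log2 difference of -1.53 ± 0.04 (SE, n = 3 each; limma adjusted p = 4.62e-14). Its untreated values were 87, 86 and 91 with the Falcor hairpin and 81, 84 and 85 with the control hairpin. After rescaling, which takes the untreated Falcor hairpin values down relative to the control ones, the untreated log2 difference was -0.09 and was not called (limma adjusted p = 0.0584). Tspan17, a tetraspanin, had 16, 15 and 14 in Falcor hairpin cells against 50, 52 and 51 in control hairpin cells, and Mmp28, a matrix metalloproteinase, had 2, 2 and 2 with the Falcor hairpin against 9, 7 and 7 with the control hairpin. Of the 12 largest decreases that were named, 10 had a hairpin difference that lay further down with doxycycline than in both other states. In the untreated lines 4 of the 12 were already lower in Falcor hairpin cells, 4 were higher and 4 were not called.

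**Figure D2:**
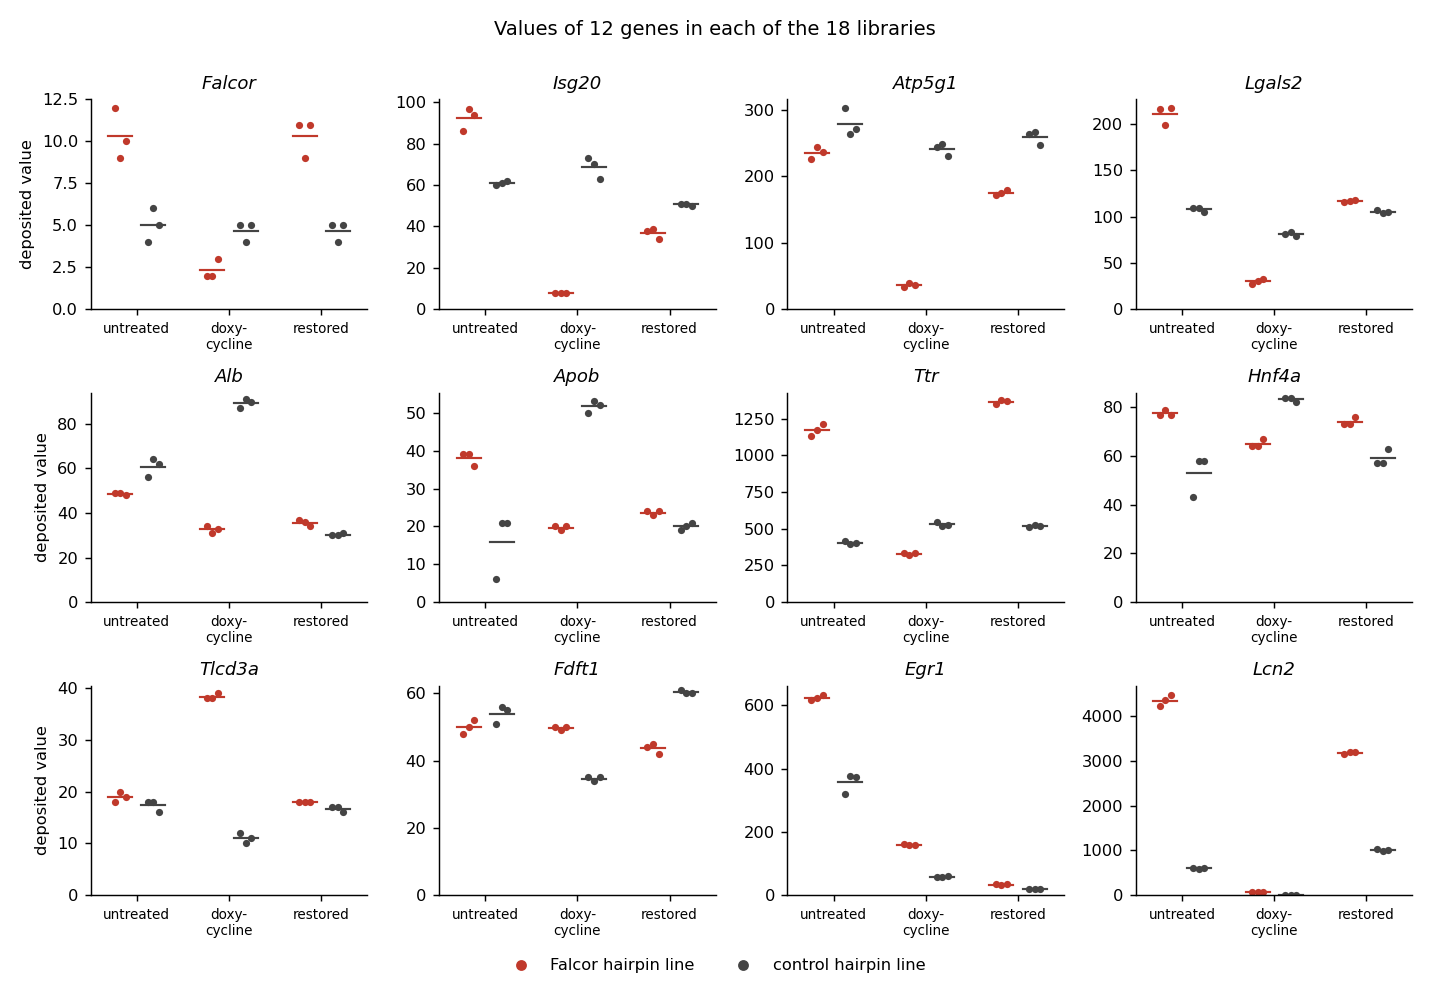
Values of 12 genes in each of the 18 inducible libraries, as deposited on a linear axis that starts at 0, by state (untreated, doxycycline, restored), with the Falcor hairpin left of the control hairpin in each state, 1 point per library and a bar at the group mean. Isg20 and Atp5g1 are lowest in the Falcor hairpin line with doxycycline, whereas Lcn2 is higher in that line in all 3 states and lower with doxycycline in both lines.

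Genes of the differentiated hepatocyte were lower on balance. Of 66 listed genes of secreted hepatocyte proteins only 16 reached the minimum, 34 being at 0 in all 6 libraries, and of the 16 tested 12 were lower and 1, the complement gene C3, was higher. The list's median log2 difference was -0.29, against -0.02 over all tested genes. Fewer cells that make such a product and less RNA per cell cannot be told apart in these bulk libraries. In the untreated lines the 16 genes had a median of 0.11, or 0.04 without the untreated control library that stands apart, as described below.

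Alb, which encodes albumin, had 34, 31 and 33 in Falcor hairpin cells with doxycycline, against 87, 91 and 90 in control hairpin cells (limma adjusted p = 1.20e-13 for a log2 difference of -1.45 ± 0.04, SE, n = 3 each). Before doxycycline it had 49, 49 and 48 with the Falcor hairpin and 56, 64 and 62 with the control hairpin. The gap with doxycycline therefore had a part from each line, since Alb changed by -0.41 in the Falcor hairpin line and by 0.57 in the control line. After restoration it was 37, 36 and 34 in Falcor hairpin cells against 30, 30 and 31 in control hairpin cells, and the Falcor hairpin line was no longer below the control line.

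Ttr, which encodes the thyroxine and retinol carrier transthyretin, had 334, 324 and 332 with the Falcor hairpin against 545, 521 and 529 with the control hairpin under doxycycline, a log2 difference of -0.71 ± 0.05 (SE, n = 3 each; limma adjusted p = 9.22e-09). Its untreated values were 1131, 1175 and 1215 in Falcor hairpin cells and 416, 393 and 406 in control hairpin cells. Its restored values were 1352, 1376 and 1371 in Falcor hairpin cells against 513, 524 and 520 in control hairpin cells. Ttr was therefore higher in the Falcor hairpin line in both states without the drug and lower only with it, and the hairpin difference changed by -2.07 from the untreated state.

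Hpx, which encodes the heme scavenger hemopexin, had 52, 54 and 51 with the Falcor hairpin against 93, 91 and 92 with the control hairpin (log2 difference -0.82). Apob, which encodes the scaffold protein of very low density lipoprotein, had 20, 19 and 20 in Falcor hairpin cells against 50, 53 and 52 in control hairpin cells with doxycycline. Its adjusted p was 0.00107 by limma for a log2 difference of -1.37 ± 0.28 (SE, n = 3 each), in a fit whose spread also covers the untreated control libraries, where Apob had 6, 21 and 21. Serpina1a, which encodes an alpha-1 antitrypsin, had only 3, 4 and 3 in Falcor hairpin cells against 5, 7 and 7 in control hairpin cells, and near-identical paralogs make its value uncertain. Lgals2, a galectin that is not in the list, had 27, 30 and 33 with the Falcor hairpin against 81, 83 and 79 with the control hairpin under doxycycline. Before the drug it had 216, 199 and 217 with the Falcor hairpin against 109, 109 and 105 with the control hairpin, again the reverse order.

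Transcription factors of the hepatocyte differed between the lines in both directions, with 7 lower and 4 higher of 19 tested and a median of -0.13. Hnf4a, a nuclear receptor at the centre of the liver network, had 64, 64 and 67 in Falcor hairpin cells and 84, 84 and 82 in control hairpin cells, a log2 difference of -0.37 ± 0.05 (SE, n = 3 each; limma adjusted p = 2.72e-05). Onecut2, a homeodomain factor of liver and bile duct, had 6, 6 and 6 in Falcor hairpin cells against 13, 14 and 14 in control hairpin cells. Both had been higher in the Falcor hairpin line untreated, by 0.39 and 0.97 on the log2 scale, and in both the control line rose with doxycycline, by 0.67 and 1.51. Foxa1, a pioneer factor related to Foxa2, was higher at 16, 15 and 15 with the Falcor hairpin against 8, 10 and 8 with the control hairpin. Nr1h3 and Nr1h4, which encode the oxysterol and bile acid receptors, were lower by small amounts, with log2 differences of -0.44 and -0.29.

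Genes of cholesterol synthesis and uptake were more often higher. Of 29 tested, 16 were higher and 5 lower, with a median of 0.19. In 14 of the 16 the hairpin difference lay further up with doxycycline than in both other states. Fdft1, which encodes squalene synthase, had 50, 49 and 50 in Falcor hairpin cells, against 35, 34 and 35 in control hairpin cells (log2 difference 0.49 ± 0.04, SE, n = 3 each; limma adjusted p = 1.30e-08). Without doxycycline Fdft1 was lower in the Falcor hairpin line, untreated at 48, 50 and 52 with the Falcor hairpin against 51, 56 and 55 with the control hairpin, and restored at 44, 45 and 42 in Falcor hairpin cells against 61, 60 and 60 in control hairpin cells. Srebf2, which encodes the SREBP factor of the pathway, had 119, 116 and 121 with the Falcor hairpin against 98, 96 and 94 with the control hairpin under doxycycline. Scap, which escorts SREBP factors out of the endoplasmic reticulum, had 40, 39 and 40 in Falcor hairpin cells against 28, 28 and 29 in control hairpin cells. In each of these genes the 3 Falcor hairpin libraries lay above the 3 control libraries with doxycycline. The exceptions in the list were Idi1 (-0.58), Insig2 (-0.51), Hmgcs1 (-0.40), Ebp (-0.34) and Stard4 (-0.15).

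Promoter sequences are shown for 3 genes of lipid synthesis, 2 that were higher (Srebf2 and Gpam) and 1 that was lower (Hmgcs1), because each holds letters that SREBP factors are known to bind. They are RefSeq stretches from 250 bases before to 50 bases after the start on GRCm38.p6, written along the gene's strand, and the capitals mark the match to TCACNCCA. Srebf2 lies at chr15:82147019-82147318 on the plus strand, Hmgcs1 at chr13:119690101-119690400 on the plus strand and Gpam at chr19:55127189-55127488 on the minus strand, the last being 1 of 2 promoters in the table for that gene.
Srebf2: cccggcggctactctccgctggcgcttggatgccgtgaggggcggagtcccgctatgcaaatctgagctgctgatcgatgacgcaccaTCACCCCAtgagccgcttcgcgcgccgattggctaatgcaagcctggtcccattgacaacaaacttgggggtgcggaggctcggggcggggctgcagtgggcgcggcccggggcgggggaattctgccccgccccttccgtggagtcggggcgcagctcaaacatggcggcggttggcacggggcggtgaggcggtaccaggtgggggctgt
Hmgcs1: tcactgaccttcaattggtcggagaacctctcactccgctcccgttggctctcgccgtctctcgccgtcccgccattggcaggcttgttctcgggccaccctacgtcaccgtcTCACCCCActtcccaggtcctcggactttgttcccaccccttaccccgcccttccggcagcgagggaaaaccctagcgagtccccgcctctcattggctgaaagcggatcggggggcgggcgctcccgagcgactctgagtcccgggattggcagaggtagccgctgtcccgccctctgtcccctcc
Gpam: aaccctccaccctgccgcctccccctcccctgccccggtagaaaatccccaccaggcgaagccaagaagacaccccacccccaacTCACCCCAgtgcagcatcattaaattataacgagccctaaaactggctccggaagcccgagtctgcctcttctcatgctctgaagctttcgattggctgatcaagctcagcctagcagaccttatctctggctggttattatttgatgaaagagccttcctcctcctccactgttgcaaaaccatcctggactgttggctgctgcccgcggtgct
The match begins 162 bases before the start in Srebf2, 137 before it in Hmgcs1 and 165 before it in Gpam. Hmgcs1, which makes the precursor of mevalonate, had 38, 39 and 39 in Falcor hairpin cells against 49, 51 and 52 in control hairpin cells. Gpam, which starts triglyceride synthesis, had 31, 32 and 31 with the Falcor hairpin against 22, 23 and 23 with the control hairpin.

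A promoter was matched by symbol for 7417 of the 9603 tested genes. TCACNCCA on either strand occurred in 9.93% of the higher genes of at least 1.5-fold (14 of 141), in 3.85% of the lower ones (17 of 441) and in 4.29% of those not called, against 4.41% of the 7417 matched genes. Counted by promoter and not by gene, the share was 4.36% of all 32851 promoters in the table. TCACNCCA is 1 of 11 motifs searched and was chosen after their shares were seen. These matches describe the letters in a fixed window and nothing about binding.

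Genes of fatty acid synthesis were split, with 10 higher and 6 lower of 22 tested and a median of 0.14. Fads2, the desaturase that starts the making of long polyunsaturated fatty acids, had 353, 351 and 351 with the Falcor hairpin against 211, 208 and 208 with the control hairpin. Acly, which makes cytosolic acetyl-CoA, had 114, 114 and 114 in Falcor hairpin cells against 69, 72 and 73 in control hairpin cells. In both genes the libraries of the 2 hairpins were well apart. Acsl4, which activates arachidonic acid, was lower at 19, 18 and 21 with the Falcor hairpin against 30, 33 and 33 with the control hairpin.

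Genes of fatty acid oxidation were more often lower than higher in Falcor hairpin cells, with 16 lower and 4 higher (Cpt2, Acads, Acaa1a and Acot1) of 28 tested and a median of -0.22. Hadhb, a subunit of the mitochondrial trifunctional protein, had 50, 51 and 48 in Falcor hairpin cells and 78, 81 and 82 in control hairpin cells. Etfa, which passes electrons from acyl-CoA dehydrogenases to the respiratory chain, had 62, 59 and 66 in Falcor hairpin cells against 99, 99 and 97 in control hairpin cells. Angptl4, a PPAR target that inhibits lipoprotein lipase, had 3, 3 and 4 with the Falcor hairpin against 9, 9 and 7 with the control hairpin. Untreated, the list stood the other way, with 21 higher and 3 lower in Falcor hairpin cells and a median of 0.35. The antioxidant genes driven by NRF2 also had more lower than higher members, 18 against 8 of 32 tested, among them Gclc, the catalytic subunit of glutathione synthesis (205, 208 and 211 in Falcor hairpin cells against 292, 295 and 295 in control hairpin cells), and Gsr, glutathione reductase (210, 204 and 216 with the Falcor hairpin against 306, 320 and 321 with the control hairpin).

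Of 15 mitochondrially encoded RNAs, 10 were lower and the other 5 were not called, with a median of -0.29. Untreated, 8 of the 15 were lower in Falcor hairpin cells and 0 higher. In 4 of the 10 the hairpin difference lay further down with doxycycline than in both other states. Nuclear-encoded subunits of complexes II to IV were lower for 12 of 26 and higher for 2, Cyc1 and Cox5a. Untreated, 18 of the 26 were already lower in Falcor hairpin cells and 2 higher. Of the 12 lower with doxycycline, 4 lay further down than in both other states. Cox5a, a subunit of cytochrome c oxidase, had 620, 615 and 603 in Falcor hairpin cells and 334, 322 and 313 in control hairpin cells.

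**Figure D3:**
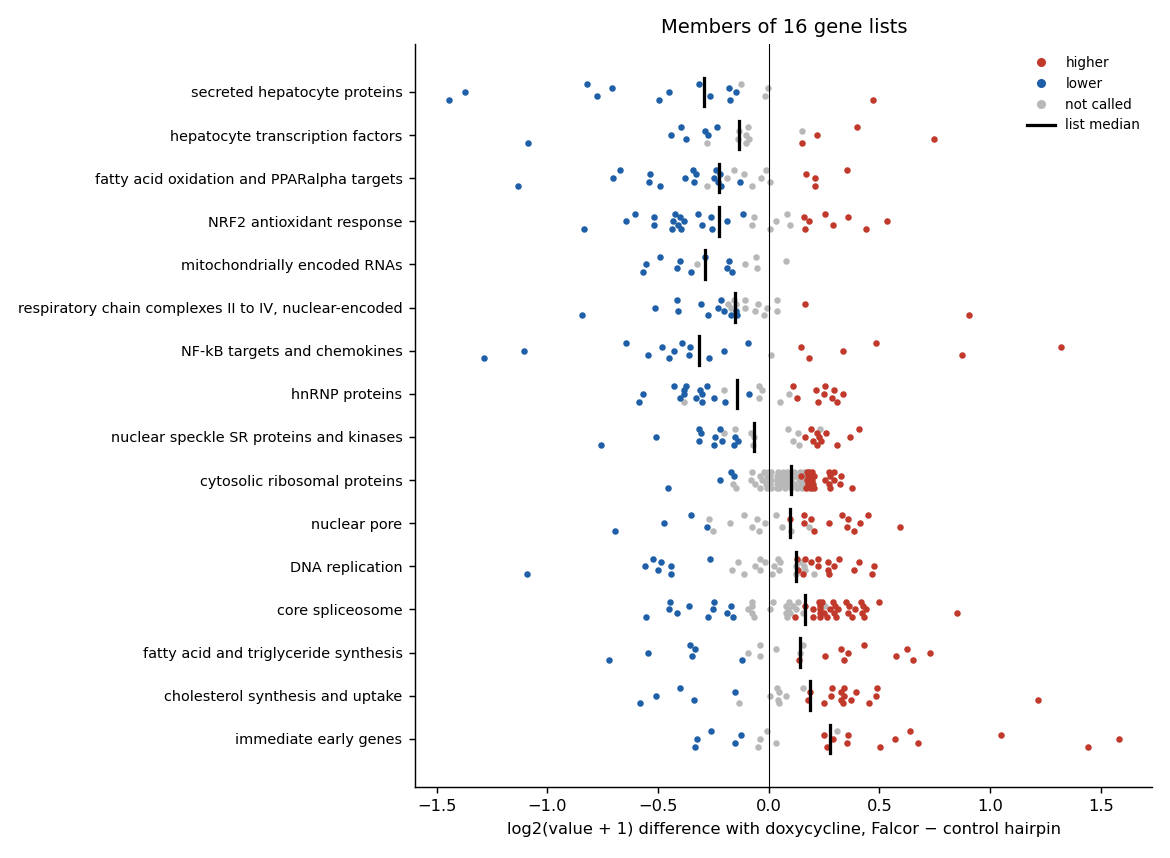
Log2 difference of each tested member of 16 gene lists between Falcor hairpin and control hairpin cells with doxycycline, 1 point per gene, coloured by call, with a bar at the list's median. Medians run between -0.31 for NF-kB targets and 0.28 for immediate early genes, and each list has members on both sides of 0.

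Immediate early genes, the first to answer growth factor signals, were higher for 12 of 22 tested and lower for 5 (Fosl1, Klf4, Klf10, Maff and Dusp1), with a median of 0.28. Egr1, a zinc finger factor, had 161, 158 and 160 in Falcor hairpin cells and 57, 56 and 59 in control hairpin cells, a log2 difference of 1.44 ± 0.04 (SE, n = 3 each; limma adjusted p = 4.85e-14). Fos, a component of AP-1, had 13, 14 and 12 in Falcor hairpin cells against 4, 3 and 4 in control hairpin cells. Both were already higher in the untreated Falcor hairpin line, Egr1 at 617, 622 and 632 with the Falcor hairpin against 321, 376 and 375 with the control hairpin, and Fos at 189, 189 and 198 in Falcor hairpin cells against 85, 89 and 86 in control hairpin cells. Both genes were lower with doxycycline than untreated in either line, with log2 changes of -1.80 for Egr1 and -3.63 for Fos in the Falcor hairpin line and of -2.60 and -4.24 in the control line. Atf3, Jun and Btg2 were higher as well, by 0.64, 0.50 and 0.67 on the log2 scale.

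The largest increase of all named genes was that of Lcn2, which encodes the iron-siderophore binding protein lipocalin 2 of the acute phase. It had 81, 78 and 81 in Falcor hairpin cells with doxycycline, against 9, 9 and 9 in control hairpin cells, a log2 difference of 3.00 ± 0.04 (SE, n = 3 each; limma adjusted p = 1.08e-17). The untreated lines were also far apart, with a log2 difference of 2.70, at 4228, 4347 and 4457 with the Falcor hairpin against 598, 591 and 598 with the control hairpin, and the restored lines had 3146, 3203 and 3187 in Falcor hairpin cells against 1024, 990 and 1015 in control hairpin cells. The level with doxycycline was thus far below both other states in either line, and from untreated it changed by -5.59 log2 units in the Falcor hairpin line and by -5.89 in the control line. The neutrophil chemokine Cxcl5 had 17, 19 and 19 with the Falcor hairpin against 6, 7 and 7 with the control hairpin under doxycycline and 547, 560 and 560 in Falcor hairpin cells against 65, 63 and 57 in control hairpin cells untreated, so its hairpin difference was smaller with the drug than without. Akr1b7, an aldo-keto reductase, had 17, 17 and 16 with the Falcor hairpin against 6, 5 and 6 with the control hairpin under doxycycline, and 210, 229 and 227 in Falcor hairpin cells against 10, 10 and 10 in control hairpin cells untreated.

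Of the 12 largest increases that were named, 8 were higher in the untreated Falcor hairpin line too, 1 was lower and 3 were not called, and 6 had less RNA with doxycycline than untreated in both lines. Rcor1, a corepressor of the REST complex, had nearly the same gap in every state, with log2 differences of 1.17 untreated, 1.29 with doxycycline and 1.00 restored. Tlcd3a, which encodes a membrane protein of the TLC domain family, is a contrasting case. It had 38, 38 and 39 in Falcor hairpin cells with doxycycline, against 12, 10 and 11 in control hairpin cells, a log2 difference of 1.70 ± 0.07 (SE, n = 3 each; limma adjusted p = 1.45e-11). Untreated it had 18, 20 and 19 with the Falcor hairpin against 18, 18 and 16 with the control hairpin, and restored it had 18, 18 and 18 in Falcor hairpin cells against 17, 17 and 16 in control hairpin cells. After rescaling, the log2 differences without doxycycline were -0.03 untreated and -0.01 restored, and neither was called (limma adjusted p = 0.704 and 0.929). Marcksl1, an actin-binding substrate of protein kinase C, had 47, 45 and 42 with the Falcor hairpin against 10, 12 and 10 with the control hairpin, and Serpine2, a secreted serine protease inhibitor, had 168, 159 and 167 in Falcor hairpin cells against 83, 83 and 83 in control hairpin cells.

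NF-kB targets and chemokines were lower for 13 of 20 tested and higher for 6, with a median of -0.31. The restored lines differed in a similar way, with 12 lower and 5 higher in Falcor hairpin cells and a median of -0.39. Untreated, 9 were lower and 8 higher. Of the 13 lower with doxycycline, 5 lay further down than in both other states. Nfkbie, an inhibitor of NF-kB that is itself a target, had 4, 4 and 4 in Falcor hairpin cells and 11, 11 and 11 in control hairpin cells, and the chemokine Ccl20 had 26, 25 and 25 with the Falcor hairpin against 52, 59 and 54 with the control hairpin. Ccl20 was also lower in the untreated Falcor hairpin line, at 76, 77 and 81 in Falcor hairpin cells against 190, 172 and 173 in control hairpin cells. Like Cxcl5, the neutrophil chemokine Cxcl1 was higher with the Falcor hairpin under doxycycline, at 68, 71 and 73 against 34, 40 and 39 with the control hairpin. The 2 related chemokines and Ccl20 thus differed between the lines in opposite directions.

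Genes of the RNA-processing machinery differed between the lines both ways and by small amounts. Of 33 tested SR proteins and kinases of nuclear speckles, 11 were higher and 12 lower, with a median of -0.07, and with no rescaling 13 were higher and 9 lower. Among them Ppig, a prolyl isomerase with an SR domain, had 5, 5 and 5 in Falcor hairpin cells against 9, 9 and 9 in control hairpin cells, Scaf11 had 14, 14 and 16 with the Falcor hairpin against 20, 22 and 21 with the control hairpin, and Acin1, a component of the exon junction complex, had 66, 67 and 68 in Falcor hairpin cells against 49, 51 and 49 in control hairpin cells. Core spliceosome genes were higher for 30 of 59 and lower for 11, with a median of 0.16. Sf3b5, a small subunit of the U2 particle, had 31, 32 and 29 with the Falcor hairpin against 16, 17 and 16 with the control hairpin, and U2af2, which binds the polypyrimidine tract, had 313, 307 and 306 in Falcor hairpin cells against 231, 224 and 219 in control hairpin cells. Sf3b1, the large subunit that holds the branch site, was lower at 57, 55 and 54 with the Falcor hairpin against 79, 82 and 81 with the control hairpin.

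The hnRNP genes, whose proteins bind nascent transcripts, were lower for 15 of 32 and higher for 10, with a median of -0.14, among them Hnrnpa3 at 165, 177 and 176 in Falcor hairpin cells against 246, 253 and 260 in control hairpin cells and Hnrnph1 at 77, 81 and 83 with the Falcor hairpin against 116, 121 and 121 with the control hairpin. In Sf3b1 and Hnrnpa3 the Falcor hairpin line changed with doxycycline by 0.23 and 0.33 log2 units and the control line by 1.06 and 0.93. Ddx39b, the RNA helicase of the TREX export complex, was higher at 191, 199 and 193 in Falcor hairpin cells against 137, 133 and 133 in control hairpin cells, and that list had 9 higher and 6 lower of 25, but 4 and 5 without replicate 2 of the Falcor hairpin and 5 and 5 without replicate 1 of the control hairpin. Among the noncoding RNAs of nuclear bodies, Malat1, a speckle RNA, had 27, 25 and 28 with the Falcor hairpin against 29, 37 and 28 with the control hairpin (log2 difference -0.24, limma adjusted p = 0.0374), with groups that touch, and this call was lost under both other scalings and without any of 3 of the 6 libraries. Neat1, the scaffold of paraspeckles, had 23, 22 and 25 in Falcor hairpin cells against 16, 18 and 16 in control hairpin cells, but its untreated gap was larger, at 77, 84 and 80 with the Falcor hairpin against 35, 40 and 42 with the control hairpin.

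Cytosolic ribosomal protein genes were higher for 26 of 81 and lower for 4 (Rpl4, Rpl5, Rpl21 and Rpl23a), with a median of 0.10. The count of higher members moved both ways with the setting, to 12 to 17 without any 1 of the 6 doxycycline libraries, and to 42 with no rescaling, 46 without the untreated control library that stands apart and 57 with the 6 doxycycline libraries alone. Untreated, 75 of the 81 were lower in Falcor hairpin cells and the median was -0.38. These are short genes, with a median longest transcript of 1059 nucleotides, and over 9324 tested genes with a length the Spearman correlation between the hairpin difference and that length was -0.149 with doxycycline and 0.399 untreated. The part of length in these counts was not tested. DNA replication genes were higher for 16 of 42 and lower for 8, with a median of 0.12, and were lower for 39 untreated with a median of -0.73. Pold1, the catalytic subunit of DNA polymerase delta, had 45, 46 and 47 in Falcor hairpin cells against 33, 33 and 31 in control hairpin cells with doxycycline, and 21, 21 and 20 with the Falcor hairpin against 33, 37 and 37 with the control hairpin untreated. Prim2, the large primase subunit, was lower with doxycycline at 13, 13 and 12 in Falcor hairpin cells against 27, 28 and 28 in control hairpin cells. Mitotic genes were even, with 16 higher and 15 lower of 40, Cdc20 at 94, 100 and 100 with the Falcor hairpin against 65, 62 and 64 with the control hairpin and Aurkb at 26, 26 and 24 in Falcor hairpin cells against 52, 50 and 56 in control hairpin cells.

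Genes induced by ATF4, the factor of the amino acid stress response, were even with doxycycline, 10 higher and 8 lower of 29 with a median of 0.07, after 25 lower and 1 higher untreated with a median of -1.11. Shmt2, a mitochondrial enzyme of serine and one-carbon metabolism, had 71, 75 and 72 in untreated Falcor hairpin cells, against 159, 167 and 171 in untreated control hairpin cells. With doxycycline it had 202, 203 and 194 with the Falcor hairpin against 139, 142 and 134 with the control hairpin, and restored it had 181, 186 and 185 in Falcor hairpin cells against 330, 346 and 342 in control hairpin cells. Gdf15, a stress cytokine of the same list, had 56, 56 and 59 with the Falcor hairpin against 32, 30 and 34 with the control hairpin under doxycycline. The hairpin difference of the list changed upward from the untreated state for 24 of the 29 genes and downward for 2.

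More genes were called between the untreated lines than between the lines with doxycycline, where 22.8% were higher and 29.9% lower. Without doxycycline 3039 genes (31.6%) were higher and 3290 (34.3%) lower in Falcor hairpin cells, and in the restored state 2781 (29%) were higher and 2819 (29.4%) lower. Untreated scaling factors differed between the lines, at 1.07 to 1.09 with the Falcor hairpin and 0.886 to 1.01 with the control hairpin, and 1 untreated control library, the one at 0.886, stands apart from the other two. Without that library, an alternative chosen after seeing the data, the hairpin difference with doxycycline was called for 5918 genes, among them 5066 of the 5070 in the same direction, and the untreated split was 3028 higher and 3255 lower. With no rescaling the untreated split was 4266 higher and 2145 lower, with a median over all genes of 0.15, and the restored split was 3828 higher and 1961 lower, with a median of 0.12. The direction of the untreated counts as a whole therefore depends on the scaling, and the gene lists named above with an untreated median kept its sign under each scaling.

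Each hairpin is carried by its own line, so a response of that line to doxycycline cannot be told apart from the induced hairpin. What was tested is whether the difference between the lines changed with the drug. It changed upward from the untreated state for 3065 genes (31.9%) and downward for 3200 (33.3%), and with no rescaling for 2260 and 3877. From the restored state it was upward for 2707 genes (28.2%) and downward for 3118 (32.5%), and with no rescaling for 2138 and 3582. The hairpin difference had a Spearman correlation with transcript length of 0.399 untreated and -0.149 with doxycycline. The part of length in these changes was not tested. A called difference that lay further in its own direction with doxycycline than in both other states was found for 1361 higher genes (14.2%) and 1898 lower genes (19.8%). The sign is counted here, so genes with an equal or larger gap in the opposite direction without the drug are included. Of the 195 genes that were higher by at least 1.5-fold, 124 or 63.6% met this condition, and of the 591 lower ones 489 or 82.7%. Both changes contain the difference with doxycycline itself, so genes picked for a large difference are favoured to meet it. The shares are a description only. Before doxycycline 318 of those 591 genes had been higher in the Falcor hairpin line, 100 had been lower and 173 were not called. Across all genes the difference with doxycycline and that without had a Pearson correlation of -0.17, and the 2 share no library, but genes are not independent and the value is a description.

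**Figure D4:**
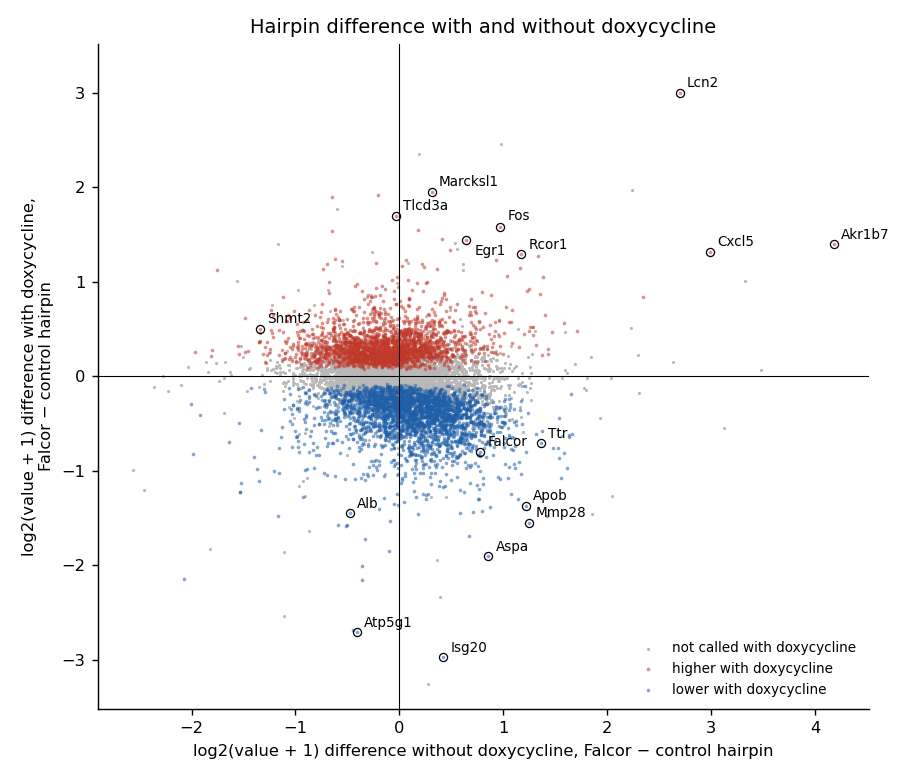
Log2 difference between the Falcor hairpin and control hairpin lines with doxycycline (vertical axis) against the same difference untreated (horizontal axis), 1 point per tested gene, coloured by the call with doxycycline. Isg20 and Ttr lie at the lower right, higher in the Falcor hairpin line untreated and lower with doxycycline, and Lcn2 at the upper right.

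The conventional Falcor hairpin offers separate libraries, counted as reads, with 4474760 to 8837581 per library. There Falcor had counts of 7, 4 and 5 in Falcor hairpin libraries against 38, 11 and 24 in control libraries, a log2 difference of -2.07 ± 0.51 (SE, n = 3 each; edgeR adjusted p = 0.00242). Both tables tested 9194 genes in common, and of these the conventional hairpin had 2588 (28.1%) higher and 2611 (28.4%) lower. Of the 567 genes that were lower by at least 1.5-fold with the induced hairpin and were in both tables, 288 or 50.8% were lower with the conventional hairpin too, and 89 or 15.7% were higher. Of the 173 higher ones 71 or 41.0% were higher and 39 or 22.5% lower. Of the genes lower with the conventional hairpin, 45.7% were lower with the induced one at any size, and of those higher, 32.5% were higher. The Pearson correlation across genes was 0.22, again as a description.

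Several of the named decreases were found with both hairpins. Part of the naming rule took genes called in the same direction with both hairpins, so for such genes the agreement was fixed by the choice. Alb fell by 2.35 log2 units with the conventional hairpin, at 67, 49 and 111 counts in Falcor hairpin cells against 456, 331 and 364 in control hairpin cells, and Hpx by 2.19. Ttr, at 20, 3 and 45 counts with the Falcor hairpin against 1006, 690 and 936 with the control hairpin, fell by 5.29 (edgeR adjusted p = 1.60e-06). Lgals2 and Onecut2 had log2 differences of -2.44 and -2.38, and Tspan12, a tetraspanin of the norrin receptor, and C1galt1, which extends O-glycans, had -2.57 and -2.10. Hnf4a fell by 1.07 and Gclc by 1.34. Of the increases, Tlcd3a rose by 2.21 (edgeR adjusted p = 2.15e-07), at 106, 77 and 166 counts in Falcor hairpin cells against 37, 9 and 30 in control hairpin cells, and Serpine2 rose by 1.38 and Pnp, purine nucleoside phosphorylase, by 1.42.

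Others went the opposite way. Lcn2, Egr1, Fos and Gdf15 were higher with the induced hairpin and had log2 differences of -1.92, -1.20, -1.17 and -1.19 with the conventional one, and the immediate early list as a whole had 15 lower and 2 higher of 21 tested in that table. Fads2 was also opposite, at -1.08. Of the 12 largest increases with the induced hairpin, 2 were higher with the conventional one and 6 were lower, and of the 12 largest decreases 10 were tested there, with 3 lower and 1, Krcc1, higher. The tables were scaled separately and hold different units, so the sizes are set side by side and not compared.

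**Figure D5:**
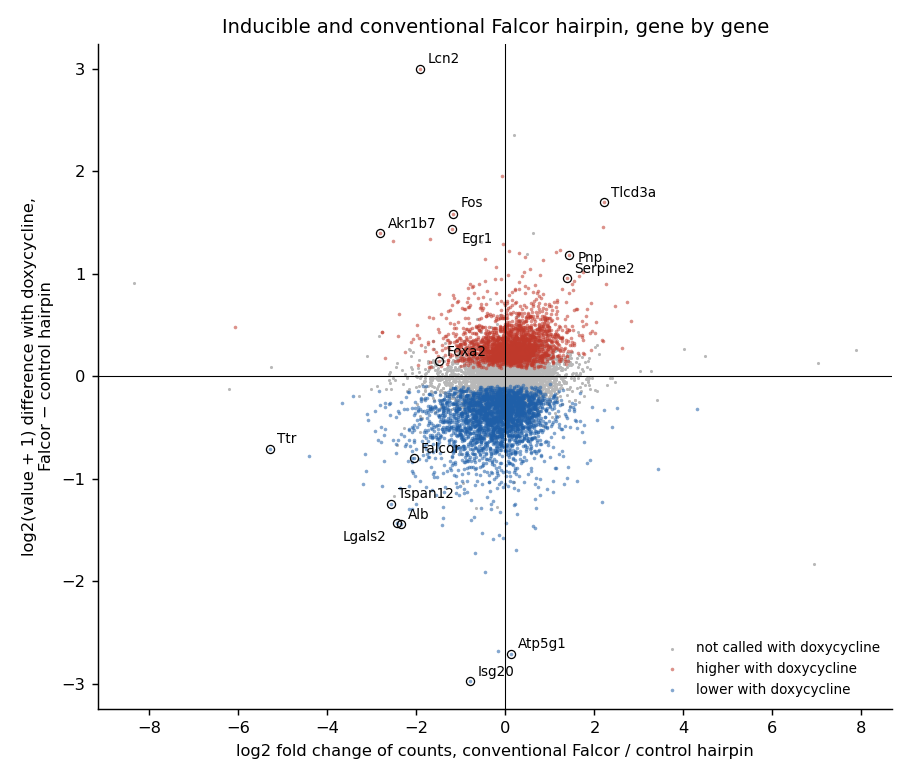
Log2 difference with the induced hairpin and doxycycline (vertical axis, log2(value + 1)) against the log2 difference with the conventional hairpin (horizontal axis, read counts), 1 point for each of the 9194 genes tested in both tables, coloured by the call with the induced hairpin. Alb, Lgals2 and Ttr are lower with both hairpins, Tlcd3a and Serpine2 higher with both, and Lcn2 and Egr1 lie at the upper left.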

How the data were processed

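Whole-number values per gene were deposited for the 18 inducible libraries. They are treated as a score, because the columns sum to nearly equal totals and no source used here states what was done to make the deposited score values. The conventional table holds read counts per gene as deposited by the authors. Libraries were depleted of ribosomal RNA and strand-specific per the labels' protocols, and kallisto, DESeq2 and mm10 appear in the submitters' processing notes without versions or roles. The annotation release is not given in the sources used here.

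Genes with a mean of at least 3 over the 6 doxycycline libraries were rescaled by TMM, put on a log2(value + 1) scale and fitted over all 18 libraries with limma 3.58.1 (trend and robust variance) in R 4.3.3. Benjamini-Hochberg adjustment ran over all 9603 genes, with a threshold of 0.05. The tests were the hairpin difference with doxycycline, untreated and restored, and the change of that difference between states. The count table was fitted with edgeR 4.0.16 (quasi-likelihood, TMM, filterByExpr), with DESeq2 1.42.0 as an alternative. Both fits were tested on simulated data. Depth is unknown for the inducible table, so no counting interval is given. Values are quoted as deposited, before rescaling. Promoters came from RefSeq. A few list members are counted in their lists but not reported here by name.

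The genes compared and the 49 gene lists (1476 entries) were chosen with earlier results of these data known. The rule for named genes took Falcor, Foxa2 and Zc3h11a, the 12 largest called increases and decreases whose groups do not overlap after rescaling and whose higher group averages 5 or more, the 12 per direction that were largest with doxycycline relative to both other states, the tested members of each list with the lowest p, 5 at most, 8 per direction shared with the conventional hairpin, and the 10 most abundant genes. Unnamed, predicted and pseudogene rows, including rows with an identifier only, were left out of these rankings. Other genes named from a list were added after their values were seen. Same-numbered libraries were not paired in the fit. Alternatives were other scalings, pseudocounts and minimums, a replicate term, the 6 libraries alone and each library left out. The liver libraries and the Zc3h11a hairpin comparison were not used here, except that the latter's libraries share the spread of the count fit.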

Additional observations from a re-analysis of the deposited data

Results flagged for a closer look

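The hairpin difference with doxycycline itself differed from that in another state, by the test of the change, for 6265 genes against the untreated lines and for 5825 genes against the restored lines. The named genes among them are given here with the change of the log2 hairpin difference between the untreated state and doxycycline, each called by limma. Downward changes were -3.40 for Isg20, -2.80 for Mmp28, -2.78 for Akr1b7, -2.76 for Aspa, -2.36 for Tbc1d8b and -2.30 for Atp5g1. They were -1.75 for Prl2c2, -1.67 for Cxcl5, -1.64 for Krcc1, -1.57 for Falcor (9030622O22Rik), -1.44 for Abhd17c and -1.39 for Tspan17. Smaller ones were -1.07 for Xlr, -0.98 for Mab21l4 and -0.36 for Zc3h11a. Upward changes were 1.73 for Tlcd3a, 1.64 for Marcksl1, 1.43 for Tead2 and 1.16 for Ctxn1, and then 0.85 for Depp1, 0.80 for Egr1, 0.61 for Fos, 0.31 for Lcn2 and 0.27 for Foxa2. The Foxa2 change was no longer called with no rescaling, and the Lcn2 change was no longer called with a pseudocount of 3. In Akr1b7 and Cxcl5 the downward change is a smaller gap in the same direction, whereas in Isg20, Mmp28, Aspa, Tbc1d8b and Falcor the order of the lines was reversed. Prl2c2 is 1 of a family of near-identical genes, so its value is uncertain.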

How the results depend on the processing

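The hairpin difference with doxycycline was called for 4908 genes with no rescaling, 5115 with median-of-ratios scaling, 5438 with no filter, 3986 at a minimum mean of 10, 5868 with the 6 doxycycline libraries alone, and 4465 to 4555 with any 1 of the 6 doxycycline libraries left out, and 5918 without the untreated control library that stands apart, against 5070 as reported. Higher genes were 42.5% to 50.3% of the calls. No setting called any of the 5070 genes in the opposite direction by limma. The count at 1.5-fold or more depended on low values, being 507 with a pseudocount of 3 (124 higher, 383 lower), 1196 with no filter (402 higher) and 508 at a minimum mean of 10 (112 higher). Falcor differed by -0.55 with a pseudocount of 3 and by -0.90 with 0.5, and it had no value at a minimum mean of 10. The conventional comparison called 6111 genes with edgeR and 5655 with DESeq2. Deviations of same-numbered doxycycline libraries had correlations of 0.13, 0.11 and -0.04, and those of other-numbered ones ran from -0.17 to 0.06. So few values cannot settle whether the numbers pair the samples. With a replicate block 5029 genes were called (2179 higher, 2850 lower). At a minimum mean of 10, where fewer list members are tested, 8 NF-kB targets and 4 clock genes were lower. Some genes named in the text lost their call in a setting, among them Irf3 without replicate 3 of either hairpin, and Malat1 as described. Without replicate 3 of the Falcor hairpin, 2 interferon-induced and 2 cytosolic ribosomal protein genes were lower, against 4 and 4 as reported. Other genes named from these lists therefore lost their call as well. The unknown depth, the rounding to whole numbers and the unstated culture of the libraries limit what low values can show.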

Other observations

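Several gene groups were not described above. Of 12 tested circadian clock genes 7 were lower and 1, Per1, was higher in Falcor hairpin cells with doxycycline, with a median log2 difference of -0.22. Clock, a core activator of the cycle, had 3, 3 and 3 in Falcor hairpin cells and 6, 7 and 6 in control hairpin cells, and Bhlhe41, a repressor within it, had 8, 6 and 6 with the Falcor hairpin against 14, 14 and 15 with the control hairpin. Arntl, the partner of Clock, had 9, 9 and 9 in Falcor hairpin cells against 12, 12 and 12 in control hairpin cells. The labels give no time of harvest. Lysosome and autophagy genes were lower for 15 of 35 and higher for 8, with a median of -0.10.

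Nuclear pore genes were higher for 13 of 29 tested and lower for 4 (Nup50, Nup54, Tpr and Ahctf1), with a median of 0.10. Tpr, the filament protein of the nuclear basket, had 19, 19 and 18 in Falcor hairpin cells and 30, 31 and 30 in control hairpin cells, a log2 difference of -0.69 (limma adjusted p = 2.51e-04). Mitochondrial ribosomal protein genes were higher for 12 and lower for 9 of 78, against 20 and 12 without the untreated control library that stands apart, 21 and 10 with no rescaling, and 29 and 12 with the 6 doxycycline libraries alone. In the cholangiocyte marker list Krt7 and Sox9 were higher, by 0.21 and 0.22 on the log2 scale, and Krt19 (-0.37) and Spp1 (-0.18) were lower.

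The genes Clock, Bhlhe41, Arntl, Per1, Tpr, Krt7, Sox9, Krt19 and Spp1 were each tested in the fit over all genes, and none was singled out by a test of its list.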
